A study of Mus musculus with 14 samples.

Results

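Mitochondrial oxidative phosphorylation genes encode the proteins that pass electrons from NADH and succinate to oxygen and use the resulting proton gradient to make ATP. They were taken as all probes with 1 gene symbol that begins with Ndufa, Ndufb, Ndufc, Ndufs, Ndufv, Uqcr, Cox4i, Cox5, Cox6, Cox7, Cox8 or Atp5, or that is Sdha, Sdhb, Sdhc, Sdhd, Cyc1 or Cycs. This gave 99 probes of 85 genes, of 13661 genes named by a probe, and the probe with the most values stood for each gene. By respiratory complex, 33 genes belong to Complex I, 5 encode its assembly factors, 1 is a Complex I pseudogene, 4 belong to Complex II, 8 to Complex III, 16 to Complex IV and 17 to ATP synthase, and Cycs encodes cytochrome c. Ndufa4 was counted with Complex IV, where its protein is now placed. No gene of the mitochondrial genome, which encodes some core subunits of these complexes, had a named probe.

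The series compares cultured cortical astrocytes that lack connexin43 (Cx43, a gap junction protein encoded by Gja1), called null, and wild-type astrocytes transfected with an siRNA construct against Cx43, called siRNA, with wild-type astrocytes. The values come from 4 null samples (replicates 1 to 4), 4 siRNA samples (replicates 1 to 4) and 3 wild-type samples (replicates 3, 4 and 6). The siRNA (20 ug) acted for 36 h according to the design text, while protein was collected 48 h after transfection, and the labels name no control transfection for the wild-type samples. All cultures came from brains of newborn mice, were passaged once and were kept in the same serum-containing medium. The protocol describes whole brain tissue although the sample titles say cortical, and the labels give neither the mouse strain nor the Gja1 allele. RNA was labelled with 1 dye per sample (Cy3 or Cy5) and hybridised to spotted oligonucleotide arrays. The deposited value is a log2 value centred per sample, so a shift in the overall level of a sample cannot be seen. The level of 1 probe is also not taken as comparable with that of another. Every difference below is on the log2 scale (a difference of 1 is a doubling).

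Wild-type replicates 1, 2 and 5 were left out, because the correlation of their columns with the rest was 0.37, 0.38 and -0.02, against 0.89 to 0.95 for the 11 samples used. Replicates 1 and 2 reached 0.86 and 0.87 once shifted parts of their columns were moved, and they are the only wild-type samples of the set of replicates 1 and 2. Of 1344 parts, 812 were moved by 1 grid row and 48 by other shifts, 394 stayed and 90 were left out. Each part was placed where it best matched the mean of the 11 samples, so this rise was built in and is no check. Per sample 53.1% to 79.8% of the probes had a value. Null and siRNA replicates 1 and 2 differed from replicates 3 and 4 across the array, and the wild-type samples used come only from replicates 3 and above, so the model held the set of replicates (1 and 2, or 3 and above) and the dye beside the group. Consecutive replicates of a group (1 and 2, or 3 and 4) differ in dye and had a median absolute difference of 0.17 to 0.70 over these genes. Whether such a pair came from a single array is not stated. The design text speaks of 4 independent cultures in each group, 6 wild-type samples are listed, and no label links samples to cultures. The p-values therefore reflect sample-to-sample spread, part of which may be technical. Gja1 read -1.17, -1.06, 2.82 and 3.03 in null samples, 1.93, 2.14, 5.47 and 5.70 in siRNA samples, and 6.08, 7.53 and 4.82 in wild-type samples. Its difference was -3.31 ± 0.58 (SE) for null minus wild type (limma, adjusted p = 0.0401, and 0.253 with consecutive replicates as a random block) and -0.41 ± 0.58 for siRNA minus wild type (adjusted p = 0.732). siRNA replicates 3 and 4 lay below wild-type replicates 3 and 4 and above wild-type replicate 6. They were thus within the range of the 3 wild-type samples, and this probe does not settle whether Gja1 was knocked down there. The labels do not say whether the probe lies in the deleted part.

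In the respiratory chain, Complex I takes electrons from NADH and Complex II from succinate. Complex III passes them to cytochrome c, and Complex IV passes them to oxygen. Astrocytes are known for high glycolytic flux and also carry a complete respiratory chain, whose nuclear genes depend on transcription factors such as nuclear respiratory factor 1 (NRF1), the ETS factor GABP and YY1.

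RefSeq promoters of the GRCm38.p6 assembly (250 bases before to 50 bases after the start site) were found for 70 of the 85 genes. The NRF1 motif (GCGCA, then any base, then GCGC, on either strand) stood in 18 of 70 promoters (25.7%), against 5.19% of 27025 genes. The ETS motif CCGGAAG stood in 17 (24.3% against 9.93%) and the YY1 motif AAGATGGCG in 7 (10% against 1.64%), each on either strand, and the motifs were counted separately where they overlap. The letters CCAAT stood in 30 promoters (42.9% against 41.1%) and TATAAA in 8 (11.4% against 15.7%). A match is a description of the letters and no measured binding. Windows of 30 bases around the NRF1 motif are shown for 4 genes whose values are described below. They are read 5′ to 3′ along the strand of the gene, with the motif in capitals.
Ndufaf4, chr4:24897960-24897989, plus strand, motif beginning 113 bases before the start: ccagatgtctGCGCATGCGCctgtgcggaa
Ndufa11, chr17:56717692-56717721, plus strand, motif beginning 60 bases before the start: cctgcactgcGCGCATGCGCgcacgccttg
Atp5k, chr5:108434430-108434459, minus strand, motif beginning 50 bases before the start: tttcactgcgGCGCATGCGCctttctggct
Uqcrc1, chr9:108936643-108936672, plus strand, motif beginning at base 6 of the transcript, in the reverse orientation: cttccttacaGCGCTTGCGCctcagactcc
Ndufaf4, Ndufa11 and Atp5k carry the same 10 letters, which read the same on both strands. The 10 letters shown for Uqcrc1 match the motif only on the other strand.

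Of the 85 genes, 69 had a value in all 11 samples and 84 in at least 1, and Uqcrq had none. For the comparisons with wild type 80 genes had enough values to be tested, and 81 for null minus siRNA. Cox6a2, Cox7b2, Cox8a and Uqcrq were not tested in any comparison, Ndufaf3 was tested in null minus siRNA alone, and Cox7a1 had no probe. Over the 69 complete genes, the median log2 value of a sample averaged 5.01 ± 0.40 in null samples, 4.71 ± 0.24 in siRNA samples (SD, n = 4 each) and 5.18 ± 0.08 in wild-type samples (SD, n = 3). The null samples ran from 4.71 to 5.55, the siRNA samples from 4.50 to 5.00 and the wild-type samples from 5.09 to 5.24. All 4 siRNA samples lay below all 3 wild-type samples in this median, and the null samples lay on both sides of them. Over all complete probes the median was 0.54, 0.59, 1.64 and 1.44 in null samples, 0.45, 0.80, 1.36 and 1.52 in siRNA samples, and 1.68, 0.97 and 1.23 in wild-type samples. Null and siRNA replicates 1 and 2 thus lay below wild type over all complete probes too. No wild-type sample of that set was used, so set and group cannot be told apart in their gap. Each sample was centred on 0 over its probes with a value. Those were 54.4% and 55.4% of probes in null and 53.1% and 59.0% in siRNA replicates 1 and 2. They were 71.1% to 79.8% in replicates 3 and 4 of these groups, and 79.1%, 61.8% and 64.3% in wild-type samples. The part of this share in the medians was not tested. Since these are bulk samples, fewer cells of a type and less RNA per cell cannot be told apart.

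Between null and wild-type astrocytes, 0 of 80 oxidative phosphorylation genes passed at an adjusted p under 0.05 (limma), where 0.59% of all 20342 probes tested did. At an unadjusted p under 0.05 there were 13 of 80 (16.2%), close to the 17% of all probes. Of these genes 36 had a positive and 44 a negative difference, where 34.5% of all probes had a negative one. The median difference of the genes was -0.08, while that of all probes was 0.27. With wild-type replicates 1 and 2 realigned and added it was 0.125 for the genes and 0.126 for all probes, and without wild-type replicate 3 it was 0.05 for the genes. With the replicate number as a block 2 genes passed (1.97% of all probes), Atp5pb at 2.56 (adjusted p = 0.0134) and Ndufa9 at 3.15 (adjusted p = 0.0469), and without wild-type replicate 6 Atp5pb alone did. No other sample has the number 6, so the block fit too takes nothing from wild-type replicate 6. All 7 tested genes of Complex III had a negative difference (median -0.39, range -1.57 to -0.08), and none passed. The median was -0.04 for Complex I, 0.00 for Complex II, -0.24 for Complex IV and 0.07 for ATP synthase. The 95% interval lay within 1 log2 unit on either side of 0 for 9 of the 80 genes and within 2 units for 65, so the precision was too low to show a small change in most genes. No marker of the 6 cell type lists passed in this comparison, and the mean of the 9 complete microglia markers was 2.35 to 4.83 in null samples and 3.56 to 3.93 in wild-type samples. Of 7 tested fibroblast and mural cell markers 3 were at an unadjusted p under 0.05 (6 of 7 negative, median -1.84), and the mean of 3 complete ones was -1.84 to 1.21 in null samples and 0.74 to 3.08 in wild-type samples. Their part in the differences was not tested.

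The 4 genes with the smallest p in this comparison did not pass. Ndufaf7, a methyltransferase needed to assemble Complex I, read 1.61, 1.63, 2.47 and 2.85 in null samples, 0.98, 1.39, 1.43 and 2.09 in siRNA samples, and 1.55, 0.95 and 0.96 in wild-type samples. All null samples lay above all wild-type samples, and the difference was 1.41 ± 0.39 (SE, limma adjusted p = 0.0983). Uqcrh, the hinge protein of Complex III, read 6.03, 6.63, 5.13 and 5.78 in null samples, 6.17, 6.57, 5.58 and 6.17 in siRNA samples, and 6.90, 7.05 and 6.66 in wild-type samples. Its null values lay below all wild-type values, as did its siRNA values, and the difference for null was -1.25 ± 0.37 (adjusted p = 0.112). Ndufs5-ps, a pseudogene of the Complex I subunit gene Ndufs5, and the Complex I accessory subunit gene Ndufa11 had -1.50 (adjusted p = 0.104) and -3.48 (adjusted p = 0.128), and their values are given below.

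Between siRNA-treated and wild-type astrocytes, 2 of 80 genes passed, both lower, where 7.38% of all probes tested passed and 1.96% were lower. Cox7a2, a subunit of Complex IV, fell by 1.96 ± 0.54 (SE, 3.89-fold; limma adjusted p = 0.0462), and Ndufs5-ps fell by 1.86 ± 0.42 (3.62-fold; adjusted p = 0.0233). At an unadjusted p under 0.05 there were 12 of 80 genes (15.0%), against 23.4% of all probes. A positive difference was found in 30 genes and a negative one in 50, where 43.4% of all probes had a negative one. The median difference was -0.31, against 0.13 over all probes. With wild-type replicates 1 and 2 realigned and added it was -0.072, against -0.022 over all probes. With the replicate number as a block, a fit that takes nothing from wild-type replicate 6, 5 genes passed (9.89% of all probes). Cox7a2, Ndufs5-ps and Sdhc were lower there and Atp5pb and Ndufa9 higher. All 4 Complex II genes were negative (median -0.50), 23 of 33 Complex I genes were negative (median -0.39), as were 9 of 13 in Complex IV (median -0.35), while ATP synthase had 7 of 17 negative (median 0.02).

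Cox7a2 read 5.36, 5.34, 4.26 and 5.95 in null samples, 5.79, 5.65, 3.55 and 4.34 in siRNA samples, and 6.41, 6.82 and 5.83 in wild-type samples. The siRNA samples lay below all wild-type samples, replicates 3 and 4 by most. Ndufs5-ps read 4.27, 4.20, 4.34 and 4.16 in null samples, 4.29, 4.69, 3.06 and 3.48 in siRNA samples, and 5.74, 5.41 and 5.15 in wild-type samples. Again every siRNA sample lay below every wild-type sample, and so did every null sample. Its other probe had -0.36 ± 0.42 (adjusted p = 0.671) for siRNA minus wild type, so the probes disagree, and Ndufs5, from which the pseudogene derives, is not among the 85 genes. Neither call passed with consecutive replicates as a random block, where 0 of 80 genes passed and 1.24% of all probes did (adjusted p = 0.21 for Cox7a2 and 0.116 for Ndufs5-ps). The Cox7a2 call was lost when siRNA replicate 2, 3 or 4, null replicate 1 or 3, or wild-type replicate 3 or 4 was left out (adjusted p 0.0569 to 0.217). That of Ndufs5-ps was lost when siRNA replicate 3 or 4 or wild-type replicate 3 or 4 was left out (adjusted p 0.0616 to 0.141).

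Uqcrc1, a core protein of Complex III, and Cycs, the electron carrier cytochrome c, came next by p and did not pass. Uqcrc1 read 3.65, 3.76, 4.84 and 4.79 in null samples, 3.70, 4.49, 2.62 and 2.92 in siRNA samples, and 4.81, 5.90 and 5.2 in wild-type samples. The siRNA samples lay below all wild-type samples, and the difference was -1.86 ± 0.56 (adjusted p = 0.0669). Cycs had a difference of 1.16 ± 0.37 (adjusted p = 0.0755).

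Markers of astrocytes and of other cells moved between these groups. Of all probes 1.96% passed as lower and 5.43% as higher in siRNA samples, and 1.24% passed with consecutive replicates as a random block. Of 10 tested microglia markers 6 were lower in siRNA than in wild-type samples (3 with consecutive replicates as a random block), with a median of -2.16. The mean log2 value of the 9 complete ones was 1.82 to 2.47 in siRNA samples, against 3.56 to 3.93 in wild-type samples. Of 7 tested fibroblast and mural cell markers 2 were lower, Col3a1 and Dcn (median -1.67), with a mean over 3 complete markers of -1.63 to -0.07 in siRNA samples and 0.74 to 3.08 in wild-type samples. Among 9 tested astrocyte markers 1 was higher and 2 were lower (3 of 9 positive, median -0.63). The mean of the 7 complete ones was 1.65 to 3.13 in siRNA samples and 3.22 to 3.75 in wild-type samples. Of 4 ependymal and choroid plexus markers 1, Ccdc39, was lower (4 of 4 negative, median -1.40), and of 4 neuron markers 1, Tubb3, was lower. With consecutive replicates as a random block 0 of these fibroblast, astrocyte, ependymal and neuron calls passed. The part of the markers in the differences of the oxidative phosphorylation genes was not tested.

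**Figure D1:**
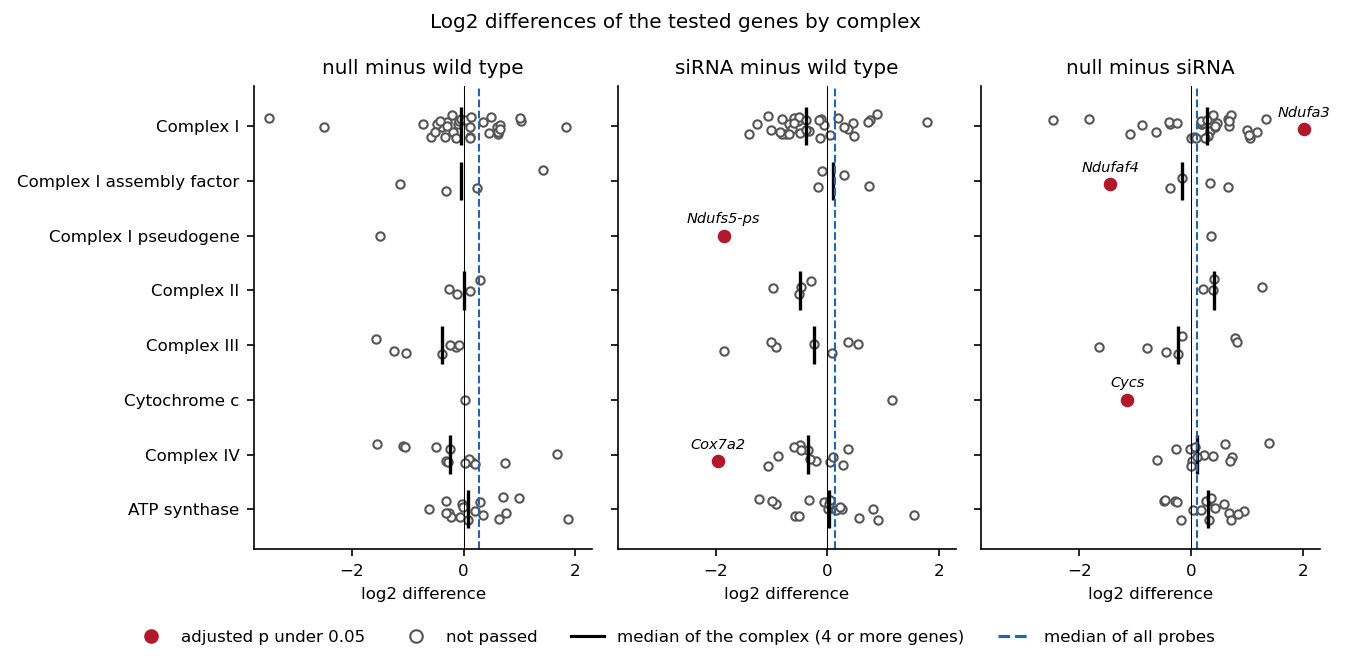
Log2 difference of each tested gene in null minus wild type, siRNA minus wild type and null minus siRNA, with complexes in rows. Filled points passed at an adjusted p under 0.05, vertical bars are the medians of complexes with 4 or more genes, and the dashed line is the median of all probes; 0, 2 and 3 genes are filled in the 3 panels.

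Between null and siRNA astrocytes, 3 of 81 genes passed, 1 higher and 2 lower, where 5.87% of all 20375 probes did (3.61% higher and 2.26% lower). Ndufa3, an accessory subunit of Complex I, was higher in null samples by 2.03 ± 0.38 (SE, 4.09-fold; limma adjusted p = 0.0118). Ndufaf4, a Complex I assembly factor, fell by 1.45 ± 0.38 (2.73-fold; adjusted p = 0.0434), and Cycs fell by 1.14 ± 0.30 (2.21-fold; adjusted p = 0.0481). At an unadjusted p under 0.05 there were 17 of 81 genes (21.0%), against 24.8% of all probes. A positive difference was found in 56 genes and a negative one in 25, where 44.5% of all probes had a negative one. The median difference was 0.24, against 0.11 over all probes. Within replicates 1 and 2 alone it was -0.14, and 28 of the 74 genes tested in both fits had the other sign there. With the replicate number as a block 4 genes passed (11.9% of all probes), these 3 and Sdhc. Complex II (4 of 4 positive), Complex I (25 of 33), Complex IV (10 of 13) and ATP synthase (12 of 17) were mostly positive, and Complex III had 2 of 7 positive.

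Ndufa3 read 5.39, 5.85, 5.63 and 6.26 in null samples, 3.57, 3.82, 3.05 and 4.56 in siRNA samples, and 5.83, 4.93 and 5.23 in wild-type samples. All null samples lay above all siRNA samples, and the wild-type values lay above the siRNA values too. The siRNA minus wild-type difference of -1.41 ± 0.46 did not pass (adjusted p = 0.0816). Its other probe, with 9 values, had 0.54 ± 0.51 for null minus siRNA (adjusted p = 0.56). Ndufa3 lost its call without null replicate 4 or siRNA replicate 3 (adjusted p 0.0513 and 0.0515).

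Ndufaf4 read -0.22, -0.42, 1.42 and 0.00 in null samples, 1.35, 1.0, 2.14 and 2.09 in siRNA samples, and 1.79, 1.10 and 2.40 in wild-type samples. Null replicate 3 overlapped the siRNA values, while the other null samples lay below them and below wild type. The other probe of Ndufaf4 had -0.22 ± 0.51 (adjusted p = 0.831). Cycs read 0.17, 0.47, 3.99 and 3.67 in null samples, 1.23, 1.62, 5.14 and 4.88 in siRNA samples, and 4.10, 3.55 and 3.79 in wild-type samples. Within each set of replicates the null samples lay below the siRNA samples, but replicates 1 and 2 lay far below replicates 3 and 4, so that the groups as a whole overlapped. Its other probe had -1.11 ± 0.47 (adjusted p = 0.167), close in size to -1.14. Ndufaf4 lost its call without any of null replicates 1, 2 and 4 or siRNA replicates 1 to 4 (adjusted p 0.0745 to 0.157), and Cycs without any 1 null or siRNA replicate or wild-type replicate 4 (0.0528 to 0.141). With consecutive replicates as a random block, 0 of 81 genes passed and 0.628% of all probes did, with adjusted p = 0.132 for Ndufa3, 0.237 for Ndufaf4 and 0.28 for Cycs. The same block left 0 of 80 genes in null minus wild type, where 0.0147% of all probes passed. At an unadjusted p under 0.05 it left 8 of 80 genes in null minus wild type (9.76% of all probes), 4 of 80 in siRNA minus wild type (14.5%) and 6 of 81 in null minus siRNA (13.4%).

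Ndufv3, a small subunit of the NADH-oxidising part of Complex I, was the next gene by p. It read 5.62, 5.79, 5.14 and 5.74 in null samples, 4.50, 5.25, 3.78 and 4.59 in siRNA samples, and 4.77, 4.84 and 4.63 in wild-type samples. The null samples lay above wild type, siRNA replicate 2 lay within the null range, and the difference from siRNA was 1.04 ± 0.31 (adjusted p = 0.0682), which did not pass.

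Cell markers moved here as well. Of all probes 3.61% passed as higher in null samples, and 0.628% passed in either direction with consecutive replicates as a random block. Of 10 tested microglia markers 5 were higher in null than in siRNA samples (1 with consecutive replicates as a random block), as were 3 of 9 astrocyte markers (1 with that block), 3 of 4 ependymal and choroid plexus markers (1 with that block) and 1 of 7 oligodendrocyte markers, Sox10 (0 with that block). The mean of the 7 complete astrocyte markers was 3.35 to 3.84 in null samples and 1.65 to 3.13 in siRNA samples. Their part in the differences above was not tested.

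**Figure D2:**
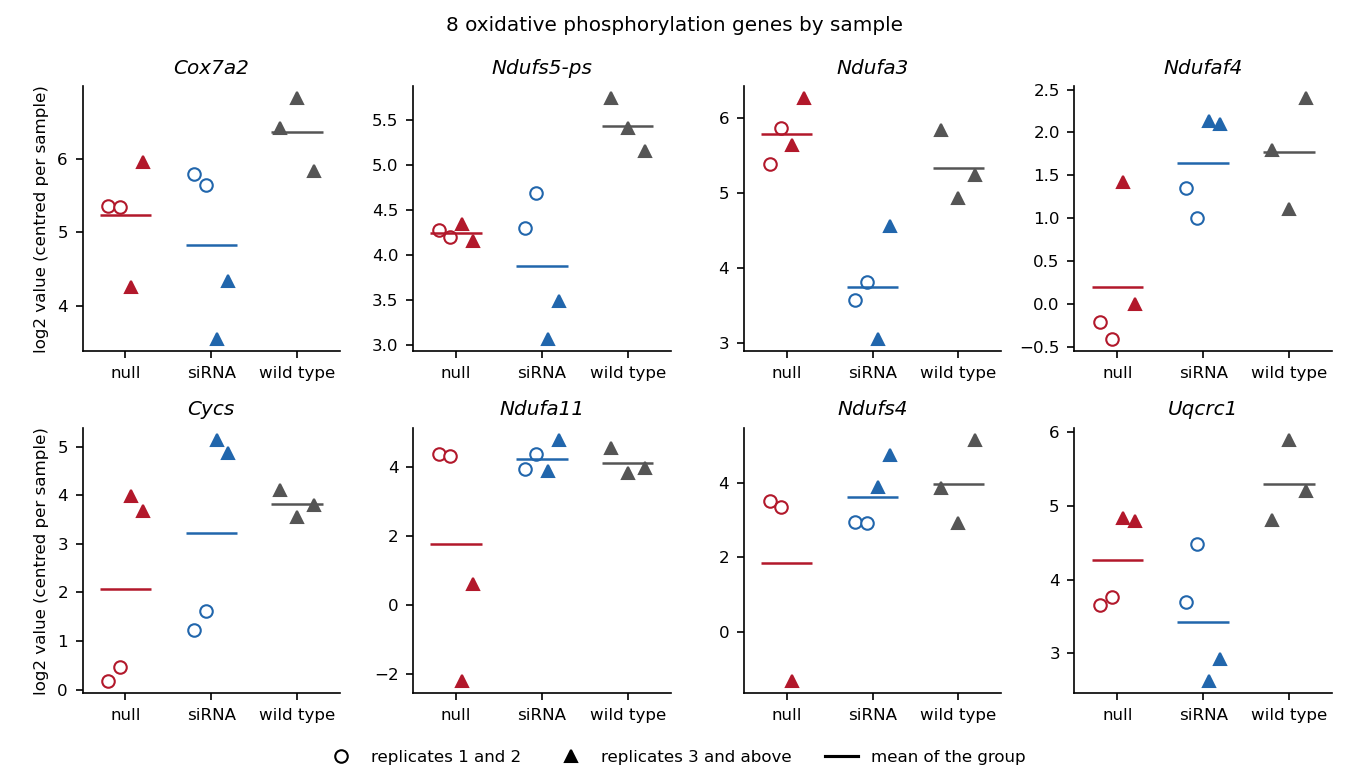
Log2 value (vertical axis, centred per sample) of 8 genes in null, siRNA and wild-type samples, with 1 point per sample and a line at the mean of the group. Circles are replicates 1 and 2 and triangles replicates 3 and above; for Cycs the circles and triangles lie further apart than the groups, and for Ndufa11 and Ndufs4 the low null values are all triangles.

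The core subunits of Complex I are shown by a pair of genes. Ndufs1, which holds iron-sulphur clusters, read 1.87, 1.72, 2.99 and 1.29 in null samples, 2.22, 2.37, 3.08 and 2.70 in siRNA samples, and 3.37, 1.92 and 2.74 in wild-type samples. Ndufv1, which binds NADH, read 2.99, 3.20, 3.30 and 4.33 in null samples, 2.81, 2.91, 3.30 and 3.82 in siRNA samples, and 3.99, 4.03 and 3.18 in wild-type samples. In both the groups overlapped, and their differences in the 3 comparisons lay between -0.62 and 0.24, none of which passed. Ndufa9 encodes an accessory subunit at the joint of the complex's arms. It read 4.36 and 4.53 in null replicates 1 and 2, 4.34, 4.45, 2.11 and 2.79 in siRNA samples, and -0.45, -0.86 and 3.68 in wild-type samples. Wild-type replicates 3 and 4 lay far below every other sample and wild-type replicate 6 did not, and the siRNA minus wild-type difference of 1.79 ± 1.05 did not pass (adjusted p = 0.349). Without wild-type replicate 6 it was 3.10 (adjusted p = 0.00542), and with the replicate number as a block likewise 3.10 (adjusted p = 0.00409). No other sample has the number 6, so the block fit takes nothing from wild-type replicate 6 and is no separate support. Ndufab1, the mitochondrial acyl carrier protein, read -1.43 and 0.07 in null replicates 3 and 4, -2.0, -1.74, -1.55 and -1.13 in siRNA samples, and -1.55, -0.93 and -0.17 in wild-type samples. Its groups overlapped and no difference passed.

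The genes of Complex II, which is also the succinate dehydrogenase of the tricarboxylic acid cycle, did not pass in any comparison. Sdha, the flavoprotein, read 4.87, 4.80, 3.90 and 4.48 in null samples, 4.21, 4.39, 3.67 and 4.11 in siRNA samples, and 3.71, 4.03 and 4.84 in wild-type samples. Sdhb, the iron-sulphur subunit, read 3.15, 3.27, 4.64 and 4.80 in null samples, 3.91, 3.83, 3.52 and 3.70 in siRNA samples, and 4.95, 4.58 and 4.01 in wild-type samples. For Sdha the groups overlapped, while the siRNA values of Sdhb lay below all its wild-type values, with a difference of -0.48 ± 0.48 (adjusted p = 0.61). Sdhc, a membrane anchor, read 4.99, 5.12, 4.09 and 2.88 in null samples, 4.03, 4.09, 1.81 and 2.06 in siRNA samples, and 4.14, 3.21 and 1.50 in wild-type samples. In Sdhc the null samples lay above the siRNA samples of the same set of replicates, and the difference of 1.27 ± 0.47 did not pass (adjusted p = 0.125), though it did with the replicate number as a block (adjusted p = 0.0336). Sdhd, the other anchor, read 5.51, 5.80, 4.94 and 4.20 in null samples, 5.14, 5.83, 3.60 and 4.28 in siRNA samples, and 5.24, 4.93 and 3.50 in wild-type samples. Its groups overlapped, with differences of -0.52 to 0.40.

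In Complex III, Cyc1, the cytochrome c1 that hands electrons to cytochrome c, read 4.64, 4.57, 4.01 and 3.54 in null samples, 4.30, 4.51, 4.20 and 4.36 in siRNA samples, and 4.34, 3.64 and 5.01 in wild-type samples. Uqcrfs1, the Rieske iron-sulphur protein, read 1.93, 1.96, 4.41 and 3.88 in null samples, 2.95, 2.83, 4.59 and 5.0 in siRNA samples, and 4.69, 3.83 and 4.32 in wild-type samples. The groups overlapped for both, and for Uqcrfs1 replicates 1 and 2 lay below all other samples. Its null minus siRNA difference of -0.79 ± 0.32 did not pass (adjusted p = 0.151).

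In Complex IV, Cox4i1 and Cox4i2 are isoforms of a regulatory subunit. Cox4i1, the common isoform, read 5.32, 5.84, 4.63 and 6.15 in null samples, 5.68, 6.64, 5.48 and 6.57 in siRNA samples, and 6.37, 7.14 and 6.40 in wild-type samples. The null samples lay below all wild-type samples, and the difference of -1.09 ± 0.39 did not pass (adjusted p = 0.183). Cox4i2, the isoform linked to low oxygen, read -0.31 and -2.51 in null replicates 3 and 4, -1.45 and -2.84 in siRNA replicates 3 and 4, and 0.02, -2.05 and -3.75 in wild-type samples. Its wild-type values alone spanned the range of the null and siRNA values, and no difference passed. Cox5a, a subunit that binds Cox4, read 2.76, 3.18, 6.42 and 6.15 in null samples, 4.13, 4.12, 5.2 and 6.11 in siRNA samples, and 6.30, 5.74 and 5.15 in wild-type samples. Cox5b, which carries zinc, read 5.26, 5.58, 5.05 and 6.41 in null samples, 5.43, 5.39, 5.19 and 6.20 in siRNA samples, and 5.69, 6.69 and 6.10 in wild-type samples. Cox5a was low in replicates 1 and 2 of both groups, and Cox5b was not.

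Cox6a1, the common isoform of its subunit, read 7.35, 8.13, 6.23 and 7.32 in null samples, 7.56, 5.93 and 7.22 in siRNA replicates 1, 3 and 4, and 6.50 and 7.83 in wild-type replicates 3 and 4, with overlapping groups. The muscle isoform Cox6a2 had 4 values, -2.14 and -2.91 in null replicates 3 and 4, -3.50 in siRNA replicate 4 and -1.63 in wild-type replicate 4. Cox8a, the common isoform of the smallest subunit, had values only in null replicates 1 and 2 (6.35 and 6.73) and siRNA replicates 1 and 2 (6.50 and 7.28). Cox8b, the muscle isoform, read -0.89 and -0.39 in null replicates 3 and 4, -2.99, -2.24 and -1.84 in siRNA replicates 2, 3 and 4, and -1.65, -2.42 and -2.97 in wild-type samples. Its null values lay above all others, and the differences of 1.68 ± 0.52 from wild type and 1.40 ± 0.57 from siRNA did not pass (adjusted p = 0.148 and 0.168).

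Cox7a2l, a Cox7a2 relative known for holding Complexes III and IV together, read 4.21, 3.96, 5.33 and 5.23 in null samples, 4.13, 4.58, 3.42 and 3.81 in siRNA samples, and 3.79, 3.94 and 4.55 in wild-type samples. Ndufa4 read 4.77, 4.73, 5.66 and 7.08 in null samples, 5.28, 5.80, 4.97 and 5.89 in siRNA samples, and 5.40, 6.75 and 6.83 in wild-type samples. The groups overlapped for both, and their differences lay between -0.32 and 0.73 with none passing.

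In ATP synthase, Atp5a1 and Atp5b encode the alpha and beta subunits of the catalytic head. Atp5a1 read 4.82, 4.42, 5.82 and 7.0 in null samples, 4.26, 4.07, 5.23 and 5.76 in siRNA samples, and 5.63, 6.18 and 5.09 in wild-type samples. Atp5b read 6.22, 6.64, 5.72 and 7.40 in null samples, 6.24, 7.23, 4.50 and 4.18 in siRNA samples, and 5.66, 6.42 and 6.88 in wild-type samples. The low Atp5b values were those of siRNA replicates 3 and 4, below all other samples, and the siRNA minus wild-type difference of -1.22 ± 0.61 did not pass (adjusted p = 0.255). Atp5g1, Atp5g2 and Atp5g3 encode the same subunit c of the proton-carrying ring. Atp5g1 read 4.97, 5.43, 4.91 and 5.81 in null samples, 5.07, 5.85, 4.61 and 5.42 in siRNA samples, and 4.48, 5.67 and 4.96 in wild-type samples. Atp5g2 read 6.46, 6.86, 5.19 and 6.0 in null samples, 6.05, 6.74, 5.01 and 5.65 in siRNA samples, and 5.39, 6.27 and 6.42 in wild-type samples. Atp5g3 read 5.58, 5.6, 7.54 and 7.70 in null samples, 5.23, 4.78 and 6.37 in siRNA replicates 1, 2 and 3, and 7.54 and 7.57 in wild-type replicates 3 and 4. Atp5g3 was low in replicates 1 and 2 and this probe of Atp5g2 was not, and no group difference passed for any of these 3 genes. The other Atp5g2 probe was lower in replicates 1 and 2, at 3.24 and 3.71 against 4.94 and 5.17 in null samples. In siRNA samples that probe read 3.10 and 4.03 against 4.22 and 4.99.

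Atp5j, coupling factor 6 of the stalk, read 4.88, 4.80, 5.89 and 5.17 in null samples, 5.06, 4.86, 6.33 and 6.39 in siRNA samples, and 6.29, 6.18 and 5.48 in wild-type samples. Atp5k, subunit e of the membrane part, read 0.38, 0.91, 6.04 and 6.21 in null samples, 1.39, 1.99, 5.52 and 5.77 in siRNA samples, and 5.82, 4.82 and 4.71 in wild-type samples. No group difference passed for either, and for Atp5k replicates 1 and 2 lay far below all other samples. The other probe of Atp5k differed in sign from the chosen one, at -4.72 for null minus wild type (adjusted p = 0.0626) and -2.59 for siRNA minus wild type, against 0.63 and 0.91. One further gene, Atp5pb (subunit b of the stalk), is named after its values were seen. It had a null minus wild-type difference of 1.87 ± 0.61 (adjusted p = 0.152), and 2.51 (adjusted p = 0.0335) without wild-type replicate 6. It read 6.01, 5.83, 6.61 and 7.64 in null samples, 5.84, 5.53 and 6.38 in siRNA replicates 1, 2 and 3, and 4.30, 4.78 and 6.88 in wild-type samples. Wild-type replicates 3 and 4 lay below all other samples and wild-type replicate 6 within them.

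These genes differed more often between the sets of replicates than between the groups. The genes named from here on for the sets were chosen after their values were seen. Between replicates 1 and 2 and replicates 3 and 4, 28 of 77 tested genes passed (limma), 7 higher and 21 lower in replicates 1 and 2, where 44.8% of all 18507 probes passed, 5.66% higher and 39.1% lower. The difference was -4.72 ± 0.41 for Atp5k (adjusted p = 7.01e-06) and -3.55 ± 0.30 for Cycs (adjusted p = 5.68e-06). The other Atp5k probe went the opposite way, at 4.83, 5.04 and -1.56 in null replicates 1, 2 and 3, 4.91, 5.39, 3.52 and 3.90 in siRNA samples, and 5.69, 5.75 and 4.91 in wild-type samples, so the Atp5k difference rests on 1 of its 2 probes. The other Cycs probe was also lower in replicates 1 and 2, at -0.84 and -0.45 against 3.81 and 3.59 in null samples and 0.57 and 1.09 against 4.54 and 4.36 in siRNA samples. It was -2.42 ± 0.44 for Cox5a, -2.17 ± 0.34 for Ndufa8, an accessory subunit of Complex I, and -2.05 for Uqcrfs1. Among the higher genes it was 2.49 ± 0.91 for Ndufa11 (adjusted p = 0.0428), 1.85 for Sdhc and 1.74 for the Complex I subunit gene Ndufa2. Fewer probes had a value in replicates 1 and 2 than in replicates 3 and 4, and each sample was centred over its own. The part of this in the differences between the sets was not tested. The median was -0.30 for the genes and -0.78 for all probes. By complex it was -1.08 in ATP synthase, where 8 of 16 genes were lower and 1, Atp5g2, higher. The other Atp5g2 probe was lower in replicates 1 and 2, so the probes disagree. In Complex I the median was -0.47 with 8 lower and 3 higher of 33, and in Complex II 0.92 with 2 of 4 higher. With consecutive replicates as a random block 14 of 77 passed, 2 higher and 12 lower (29.1% of all probes), Atp5k, Cycs, Cox5a, Ndufa8 and Uqcrfs1 among them, while Ndufa11 did not (adjusted p = 0.0888).

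Over the 69 complete genes in the 8 null and siRNA samples, the set of replicates carried a median of 39.8% of a gene's variance (47.5% over all complete probes), null against siRNA 11.2% (11%), their interaction 8.03% (6.49%) and dye 7.49% (2.48%). The set was the largest term in 37 of the 69 genes, null against siRNA in 9. Across the 11 samples, which share these sets, genes of the same complex had a median correlation of 0.24 and genes of different complexes 0.22, against 0.21 between all complete probes. It was 0.47 within Complex IV (9 genes), 0.23 within Complex I (30 genes) and 0.06 within ATP synthase (14 genes). Within Complex II (4 genes) it was 0.02, within Complex III (6 genes) 0.01 and within the assembly factors (4 genes) 0.26. These are a description of these samples.

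**Figure D3:**
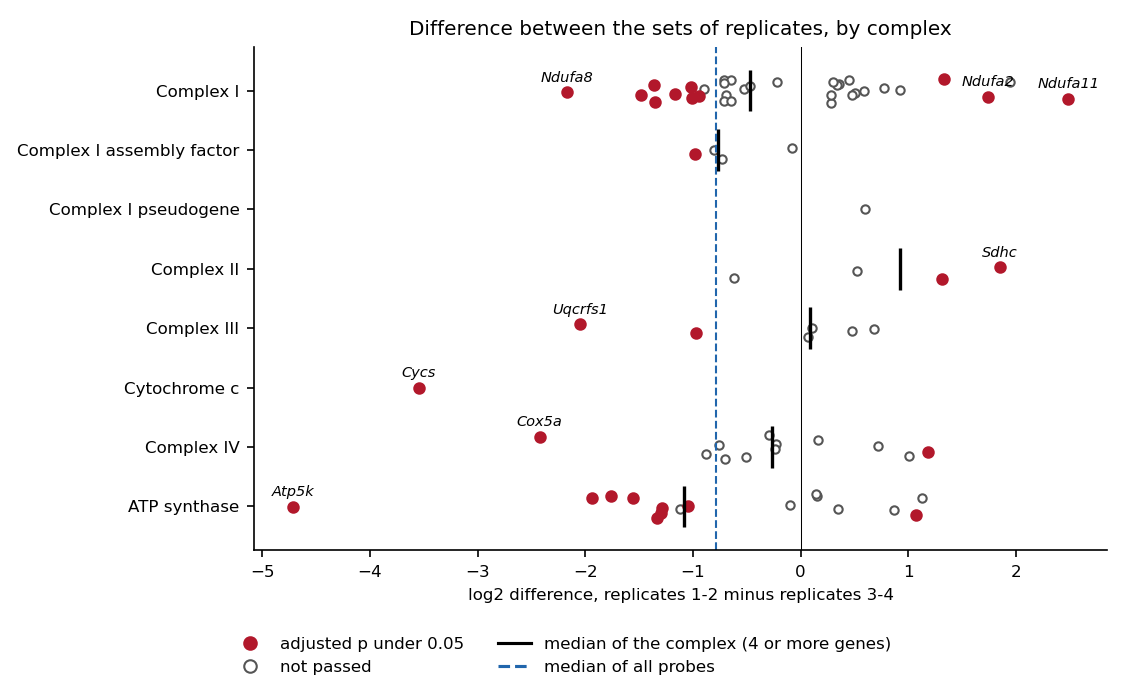
Log2 difference between replicates 1 and 2 and replicates 3 and 4 (horizontal axis) for 77 genes, with complexes in rows. Filled points passed at an adjusted p under 0.05, bars are the medians of complexes with 4 or more genes, and the dashed line is the median of all probes at -0.78; Atp5k and Cycs lie furthest to the left, and the other Atp5k probe, not drawn, went the opposite way.

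For 3 of 73 genes the null minus siRNA difference itself differed between the sets of replicates (interaction term, limma), where 3.62% of all 16414 probes did. Ndufa11 read 4.36, 4.31, -2.21 and 0.59 in null samples, 3.94, 4.35, 3.87 and 4.77 in siRNA samples, and 4.53, 3.80 and 3.96 in wild-type samples. The low values were those of null replicates 3 and 4, while null replicates 1 and 2 lay with the siRNA and wild-type samples, and the difference between the sets was 5.32 ± 0.97 (SE, adjusted p = 0.0164). Ndufs4, an accessory subunit of Complex I whose loss causes Leigh syndrome, read 3.51, 3.37 and -1.34 in null replicates 1, 2 and 3, 2.95, 2.93, 3.90 and 4.77 in siRNA samples, and 3.87, 2.94 and 5.16 in wild-type samples. Its low value was that of null replicate 3 alone, null replicate 4 having none, and the difference between the sets was 6.06 ± 1.05 (adjusted p = 0.0159). Uqcrc1 had -2.43 ± 0.58 (adjusted p = 0.048), with siRNA replicates 3 and 4 below null replicates 3 and 4 and no such gap in replicates 1 and 2. With consecutive replicates as a random block these 3 and Atp5b passed, 4 in all, against 5.37% of all probes.

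Within replicates 3 and above alone, 1 of 76 genes passed in null minus wild type (4.58% of all probes), Ndufa11 at -4.77 (adjusted p = 0.000661). In siRNA minus wild type 5 of 76 passed there, all lower, where 9.23% of all probes passed and 3.22% were lower. They were Cox7a2 (-2.29), Ndufs5-ps (-2.18), Uqcrc1 (-2.47), Atp5b (-1.84) and the Complex I subunit gene Ndufb11 (-1.70). In null minus siRNA 7 of 76 passed (9.88% of all probes), with Ndufa3 at 2.14 (adjusted p = 0.0347). Within replicates 1 and 2 alone, a fit with 1 residual degree of freedom per gene passed 22 of 75 genes in null minus siRNA, 8 higher and 14 lower, beside 49.2% of all probes. Ndufa3 was 1.93, Ndufaf4 -1.49 and Cycs -1.11 there, and 2.14, -1.41 and -1.18 within replicates 3 and above, as a description only, since a fit over both sets chose these 3 genes and favours like differences.

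**Figure D4:**
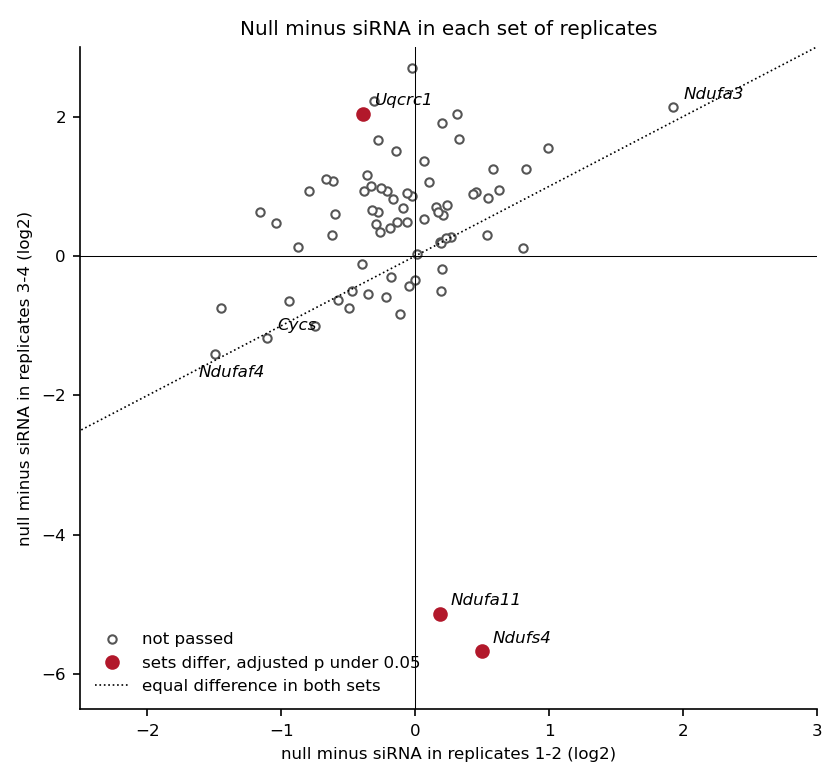
Null minus siRNA (log2) in replicates 1 and 2 (horizontal axis) against the same in replicates 3 and 4 (vertical axis) for 73 genes, with a dotted line where both are equal. Filled points are the 3 genes whose differences passed as unequal; Ndufa3, Ndufaf4 and Cycs, chosen by a fit over both sets, lie near the line.

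The promoter motifs were set beside the differences. In null minus siRNA the 18 genes with the NRF1 motif had a median of 0.28 with 1 called (Ndufaf4), and the 50 without had 0.24 with 2 called. Of all probes 5.87% passed there. In null minus wild type the medians were -0.21 with the NRF1 motif and 0.02 without, and in siRNA minus wild type -0.50 and -0.21. Between the sets of replicates, 11 of 17 genes with the motif passed and 12 of 49 without it, with medians of 0.11 and -0.64, beside 44.8% and a median of -0.78 over all probes. With and without the ETS motif the medians were -0.12 and 0.03 in null minus wild type, and -0.48 and -0.21 in siRNA minus wild type. They were 0.26 and 0.25 in null minus siRNA, and -0.02 and -0.59 between the sets. For the YY1 motif (7 genes) they were -0.29 and -0.02, 0.15 and -0.32, 0.08 and 0.27, and -0.64 and -0.30 in the same order. These are counts and medians over genes that share samples, with no test.

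Other mitochondrial genes were listed beside these 85. Of all probes 0.59% passed in null minus wild type, 7.38% in siRNA minus wild type and 5.87% in null minus siRNA. At an unadjusted p under 0.05 (limma) these shares were 17%, 23.4% and 24.8%. Of 17 tested assembly factors and regulators of the complexes 0 passed in any of the 3 comparisons (limma), with 1, 1 and 3 at an unadjusted p under 0.05 in null minus wild type, siRNA minus wild type and null minus siRNA. Of 14 biogenesis genes, a list that holds Nrf1, Tfam and Ppargc1a, 0 passed (0, 0 and 3 unadjusted), and of 13 membrane carriers 0 passed (2, 1 and 3 unadjusted). Of 20 tricarboxylic acid cycle and pyruvate genes 1 passed, in null minus siRNA, beside 5.87% of all probes. It was Pdk3, a kinase that inhibits pyruvate dehydrogenase, at -1.49 ± 0.33 (adjusted p = 0.0244). Of 68 mitochondrial ribosome genes 5 were higher in siRNA than in wild-type samples (median 0.11, beside 5.43% of all probes higher) and 2 were lower in null than in siRNA samples (beside 2.26% of all probes), counts near those of the whole array, with Mrpl45 at 3.13 ± 0.55 (adjusted p = 0.00749) and -1.77 ± 0.46 (adjusted p = 0.0423). Of 5 mitochondrial antioxidant genes 1 was higher in siRNA than in wild-type samples (beside 5.43% of all probes higher). It was Sod2, the manganese superoxide dismutase, at 1.89 ± 0.49 (adjusted p = 0.0396). None of the genes of these lists passed with consecutive replicates as a random block.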

How the data were processed

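The deposited values are on a log2 scale, 1 per spot probe for each sample, and they show that the authors centred each sample and each of its 48 print blocks on 0. Background correction and scanner settings are not given by the labels. Wild-type replicates 1 and 2 were partly shifted by 1 grid row against the probe names, and replicate 5 matched no other sample, so these 3 were left out. Probes were named through the platform annotation, and each gene was read from the probe with the most values, then the highest mean.

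A linear model with group, dye and set of replicates (1 and 2, or 3 and above) was fitted to all probes with limma 3.58.1 in R 4.3.3, and the script was tested on simulated data. A probe needed 2 values in every group of the fit, whichever groups were compared, and a difference that could be estimated. Genes passed at a Benjamini-Hochberg adjusted p under 0.05 over all probes tested, and every adjusted p in the text comes from limma. Genes are named if they passed, if they had the 4 smallest p-values where fewer than 4 passed, or if they stood on a list of core and isoform subunits. The genes and lists were chosen with earlier results of these data known.

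Replicate numbers are shared between groups. Deviations from the group means correlated between same-numbered null and siRNA samples at 0.57 to 0.65 in 4 pairs, and in the 2 pairs of each comparison with wild type at 0.31 to 0.39 for null and 0.12 to 0.16 for siRNA. The null and siRNA values include the difference between the sets, which both groups share. From the means of group and set they were 0.41 in replicates 1 and 2 and 0.51 in replicates 3 and 4. What is left there is the difference within a consecutive pair, which includes dye. With wild type they were then 0.38 to 0.59 for null and 0.25 to 0.40 for siRNA. The fit with the replicate number as a block is given beside the calls it changed. Wild-type replicate 6 is the only sample of its number, so that fit in effect leaves it out. Other alternatives were no term for the set, no dye term, quantile normalization, consecutive replicates as a random block (consensus correlation 0.44), single sets of replicates, probe means, all 14 columns, realigned columns and leaving out each sample. The number of arrays limits the precision.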

Additional observations from a re-analysis of the deposited data

Results flagged for a closer look

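For 3 of 73 genes (4.11%, beside 3.62% of all probes) the null minus siRNA difference in replicates 1 and 2 was unlike that in replicates 3 and 4 by a test of the difference itself (limma interaction term). For Ndufs4 it was 6.06 higher in replicates 1 and 2 (adjusted p = 0.0159). The mean null value was 3.44 in replicates 1 and 2 and -1.34 in replicate 3, the only other null value, and the mean siRNA values were 2.94 and 4.34. For Ndufa11 it was 5.32 higher (adjusted p = 0.0164), with null means of 4.33 and -0.81 and siRNA means of 4.15 and 4.32. For Uqcrc1 the difference was -2.43 (adjusted p = 0.048), with null means of 3.71 and 4.82 and siRNA means of 4.09 and 2.77.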

How the results depend on the processing

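In null minus wild type 0 genes passed as reported, 2 with the replicate number as a block, 1 in replicates 3 and above, and 0 to 1 when single samples were left out (1 without wild-type replicate 6). In siRNA minus wild type 2 passed as reported, 5 with the replicate block, 5 in replicates 3 and above, 1 with all 14 columns, 1 with realigned columns, 1 with probe means, 0 without the set term, 0 with consecutive replicates as a random block, and 0 to 4 when single samples were left out (4 without wild-type replicate 6, 1 without null replicate 1 or 3, 0 without siRNA replicate 3 or 4 or wild-type replicate 3 or 4). In null minus siRNA 3 passed as reported, 4 with the replicate block, 7 in replicates 3 and above, 22 in replicates 1 and 2, 1 with realigned columns, 0 with all 14 columns, 0 without the set term, 0 with consecutive replicates as a random block, 0 with probe means, and 0 to 5 when single samples were left out (5 without wild-type replicate 6, 2 without null replicate 3 or wild-type replicate 4, 1 without siRNA replicate 1, 2 or 4 or null replicate 1 or 2, 0 without null replicate 4 or siRNA replicate 3). Between the sets of replicates 28 passed, 14 with consecutive replicates as a random block, a setting chosen after seeing the data for this result and for the difference between the sets. With all 14 columns the median difference was 0.39 in null minus wild type (-0.08 as reported) and 0.082 in siRNA minus wild type (-0.31 as reported), where leaving out single samples gave -0.43 to -0.036. With realigned columns, whose parts were placed by their match with the 11 samples used, it was 0.125 and -0.072, beside 0.126 and -0.022 over all probes. In null minus wild type it was also positive without wild-type replicate 3 (0.05) and in replicates 3 and above (0.11). In null minus siRNA it was 0.62 in replicates 3 and above and -0.14 in replicates 1 and 2 (0.24 as reported), and 0.06 without siRNA replicate 3, 0.07 without null replicate 4 and 0.38 without null replicate 2. In replicates 1 and 2 alone 28 of 74 genes turned sign in null minus siRNA, of which the named genes Ndufa4 (-0.79) and Sdhb (-0.66) passed there. Of the other values of named genes over all settings, 1908 kept direction and side of the threshold, 179 turned sign with no call on either side, 55 lost and 26 gained a call. The cause was not tested.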
